A study of Drosophila melanogaster with 3 samples.

Results

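The heat shock protein genes Hsp22, Hsp23, Hsp26, Hsp27, Hsp67Bc, Hsp68 and Hsp83, the heat shock cognate gene Hsc70-4 and the heat shock factor gene Hsf were examined for chromatin occupancy by CG33213. The 9 genes were chosen by name as a functional group, with no binding value in the rule. Earlier results of these data were, however, known when they were chosen. They are 9 of 13945 protein-coding genes and of 18164 genes in all on the 6 chromosome arms used. All were annotated in Ensembl BDGP6.54. The data are ChIP-seq peak lists from 3 biological replicates of a single group: whole embryos of pooled sexes, collected over 0 to 24 h, from a transgenic fly line that stably expresses CG33213 with GFP at its C terminus. The fusion was precipitated with an anti-GFP antibody, though the antibody field names CG33213 itself, and the labels do not say which promoter drives the transgene. The labels name no heat treatment and no second condition, so induced and uninduced chromatin could not be compared, and whole embryos mix all cell types and stages of that period. The lists give no read counts, so the depth behind each peak is unknown; the labels name a control experiment, which was not analysed here.

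In Drosophila, Hsf is the transcription factor that binds heat shock elements, which are inverted repeats of the unit GAA, and switches on heat shock genes after stress. The small heat shock proteins, here Hsp22, Hsp23, Hsp26, Hsp27 and Hsp67Bc, hold unfolding proteins in solution, and several of them are also switched on by ecdysone during normal development. Hsp68 is a heat-induced protein of the Hsp70 family, Hsc70-4 its main constitutive cytosolic relative, and Hsp83 the cytosolic Hsp90, which is expressed without stress and rises further with it. GAGA factor, the product of Trl, binds GAGAG elements and keeps heat shock promoters accessible and their RNA polymerase paused before induction. The heat-induced class comprised Hsp22, Hsp23, Hsp26, Hsp27, Hsp67Bc and Hsp68, and the constitutive class Hsp83, Hsc70-4 and Hsf.

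Promoter sequences of occupied and unoccupied heat shock genes are given from the RefSeq Release 6 genome (dm6), 5′ to 3′ along the strand of the gene. The first 3 run from 100 bases before to 100 bases after an occupied summit, the next does so around a weak summit of Hsp68, and the Hsp23 stretch ends 20 bases before its transcription start site (TSS) and holds no summit of the pooled list. The Hsp83 stretch is limited to 30 bases around its heat shock element, since the summit lies in an annotated 5′ UTR. Capitals mark a pair of heat shock units (GAANNTTC or TTCNNGAA) or a GAGA element (GAGAG or CTCTC).
Hsp26 promoter site (chr3L:9377469-9377669, minus strand): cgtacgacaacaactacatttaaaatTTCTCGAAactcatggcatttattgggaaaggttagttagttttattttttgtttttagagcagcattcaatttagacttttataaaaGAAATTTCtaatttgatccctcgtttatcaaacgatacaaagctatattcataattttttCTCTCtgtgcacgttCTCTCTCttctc
Hsp27 promoter site (chr3L:9383819-9384019, plus strand): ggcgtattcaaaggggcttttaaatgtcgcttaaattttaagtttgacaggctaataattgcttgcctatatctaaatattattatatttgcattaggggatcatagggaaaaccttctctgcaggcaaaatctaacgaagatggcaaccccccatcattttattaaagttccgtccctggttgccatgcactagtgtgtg
Hsc70-4 promoter site (chr3R:15242446-15242646, plus strand): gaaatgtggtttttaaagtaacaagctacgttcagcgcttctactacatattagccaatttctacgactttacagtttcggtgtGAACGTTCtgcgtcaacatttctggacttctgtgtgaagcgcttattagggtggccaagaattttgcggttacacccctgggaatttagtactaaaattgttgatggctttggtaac
Hsp68 weak promoter site (chr3R:24057379-24057579, minus strand): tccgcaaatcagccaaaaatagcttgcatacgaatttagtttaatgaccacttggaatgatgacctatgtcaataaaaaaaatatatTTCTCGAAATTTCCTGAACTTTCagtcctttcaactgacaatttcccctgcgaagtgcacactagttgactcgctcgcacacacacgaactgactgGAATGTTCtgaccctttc
Hsp23 promoter without a summit (chr3L:9381662-9381862, plus strand): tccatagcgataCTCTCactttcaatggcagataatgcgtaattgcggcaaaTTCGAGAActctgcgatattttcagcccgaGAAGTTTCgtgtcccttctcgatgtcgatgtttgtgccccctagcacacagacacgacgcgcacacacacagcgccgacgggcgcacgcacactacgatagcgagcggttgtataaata
Hsp83 heat shock element (chr3L:3193135-3193164, plus strand): ccagaagcctctaGAAGTTTCtagagactt

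CG33213 occupied the promoters of Hsp83, Hsp27, Hsp26 and Hsc70-4. These 4 of 9 genes had a summit of the optimal list, the 4417 peaks that passed the authors' irreproducible discovery rate (IDR) threshold, within 500 bp of a TSS. By the same rule 25.0% of all protein-coding genes, and 20.7% of all genes, had a bound promoter. With only 9 genes chosen as a group no test was attached to this difference. Within 5 kb of a TSS or inside the gene, 7 of 9 had an optimal summit, against 47.7% of protein-coding genes. Some of those summits served several members or belonged to a neighbouring gene. The 7 genes thus rested on 7 distinct summits, 5 of them nearest to a member's own TSS. The count followed the distance, with 5 members at 2 kb and 9 at 10 kb. No share of protein-coding genes is given at those distances.

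Hsp83 carried the strongest site. The gene lies on 3L from 3192969 to 3197059 on the plus strand, and the peak from 3192957 to 3193231 had its summit at 3193114, 102 bp upstream of the TSS at 3193216 and within the 5′ UTR of transcripts that start at 3192969. It ranked 89 of 4417 by the peak caller's signal, above 98.0% of optimal peaks. The closest summits in replicates 1, 2 and 3 ranked 93, 73 and 92 of 30000 (mean 86.0 ± 11.3, SD, n = 3), each within 8 bp of it. This was the smallest SD among the 4 occupied promoters, but relative to the mean rank that of Hsc70-4 (174 for a mean of 2085) was smaller. The heat shock pair in the summit window began 34 bases downstream of the summit, 68 bp before the TSS.

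Hsp83 also held a site inside its transcription unit. The summit at 3194339 lay in an intron, 1123 bp downstream of the nearest TSS, and ranked 1921. Replicates 1 and 3 placed it at 1672 and 1428, but replicate 2 at 5708, outside its 4417 strongest peaks. A further optimal summit past the 3′ end, at 3197665 (rank 3098), was 34 bp from the TSS of CG14966, which overlaps the end of Hsp83 on the other strand, and is nearer to that gene. It ranked 4440, 1923 and 4791, so replicate 2 alone had it among its strongest peaks. The divergent neighbour CG14965, separated from Hsp83 by 478 bp, had a weak summit 35 bp from its TSS at rank 10265 of the 30000 entries of the relaxed pooled list, which was called before IDR.

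Hsp27 and Hsp26 were the occupied genes of the small heat shock cluster on 3L. Hsp27 runs from 9384063 to 9385694 on the plus strand. Its peak from 9383802 to 9384051 had the summit at 9383919, 144 bp upstream of the TSS, and ranked 184. In replicates 1, 2 and 3 the closest summits ranked 117, 190 and 331 (mean 213 ± 109, SD, n = 3). Hsp26 runs from 9376418 to 9377427 on the minus strand, and its summit at 9377569 lay 142 bp upstream of the outer TSS. It ranked 1240, and 2133, 1238 and 949 in the replicates (mean 1440 ± 617, SD, n = 3). All 6 replicate values of these genes fell within the 4417 strongest peaks. Both sites were intergenic.

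The other members of the cluster were not occupied at their promoters in the optimal list. Hsp22 (9372931 to 9374964, plus strand) came closest. Its strongest pooled summit, at 9373606, lay 391 bp upstream of the TSS at 9373997 and ranked 5441, with a −log10 q of 2.71 against 3.42 as the lowest value of the optimal list. Replicates 1 and 2 placed their best Hsp22 promoter summit at 3696 and 3744, among their strongest 4417, while the best of replicate 3 ranked 8564. The best summits of replicates 1 and 2 stood at -445 and -390 bp from the inner TSS, whereas that of replicate 3 stood 9 bp downstream of the outer one. Replicate 3 also had a summit at 9373606, at rank 19065. The 201 bp around 9373606 held 6 GAGA elements and no heat shock pair.

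Hsp67Bc (9371511 to 9372497, minus strand) and Hsp23 (9381882 to 9382765, plus strand) had less. The pooled summit nearest the Hsp67Bc promoter, at 9372920, ranked 12302. It lay 423 bp upstream of Hsp67Bc but 11 bp from the shared start of CG4456 and the long Hsp22 transcript. Replicate 1 had no promoter summit for Hsp67Bc, and replicates 2 and 3 had theirs at 21628 and 8564. Hsp23 had no promoter summit in the pooled list or in replicates 1 and 2, and 1 at rank 27344 in replicate 3. The Hsp27 summit, 2037 bp downstream of the Hsp23 TSS, and the Hsp26 summit, 4313 bp upstream, were the optimal sites that placed Hsp23 within 5 kb. The Hsp26 summit likewise lay 3572 bp from Hsp22 and, at 5072 bp from Hsp67Bc, just outside the distance. Among other genes of the cluster, Hsp67Ba and CG4461, a gene listed with the small heat shock genes, had no promoter summit in the pooled list, and Fdx1 had weak ones, at 8799 and 26589. The order of members along the cluster is plotted with the pooled signal.

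**Figure D1:**
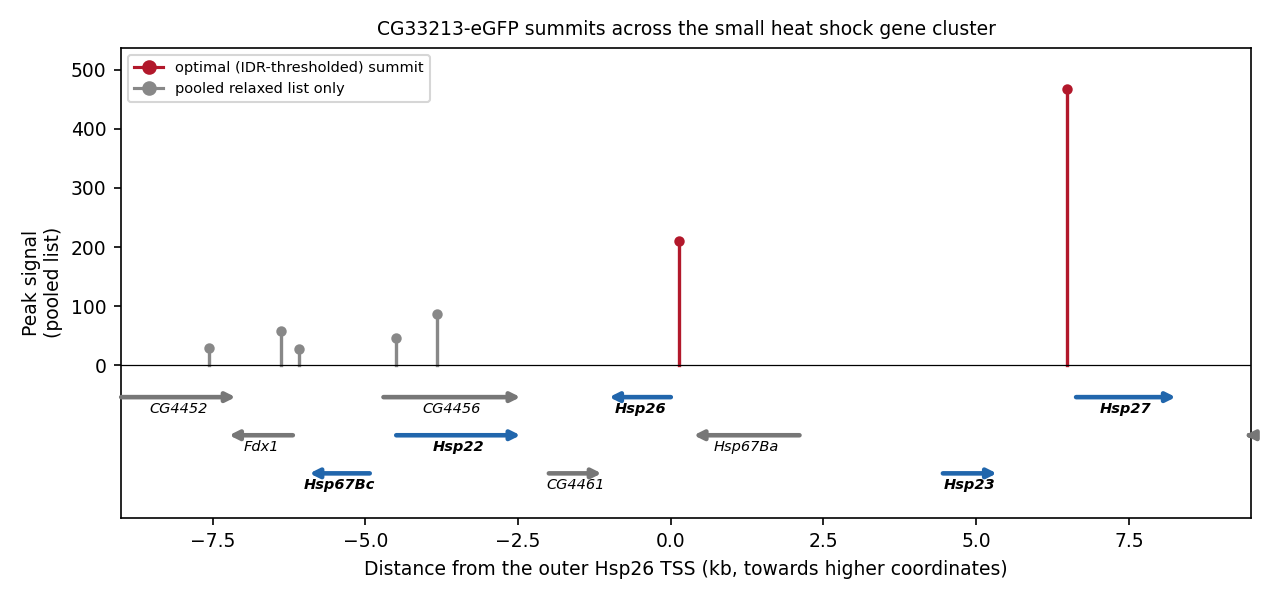
Pooled-list summits across the small heat shock gene cluster. The horizontal axis is the distance in kb from the outer Hsp26 TSS towards higher coordinates, the vertical axis the peak caller's signal in the pooled list; red marks optimal summits, grey marks entries below the optimal list, and arrows show protein-coding genes with members in blue. The optimal summits stand at Hsp26 (signal 210.3) and Hsp27 (signal 466.8), and the entries around Hsp22 and Hsp67Bc reach 86.2.

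Hsc70-4 was occupied at its outermost start. The gene lies on 3R from 15242687 to 15246614 on the plus strand and has 6 annotated TSSs. The summit at 15242546 stood 141 bp upstream of the first and ranked 2011. The replicate summits ranked 1885, 2178 and 2193 (mean 2085 ± 174, SD, n = 3), the first of them offset by 104 bp. The 451 bp between Hsc70-4 and the divergent gene tefu, which encodes the fly ATM kinase, contain this summit, and tefu counted as bound through it. An intronic summit at 15243648 ranked 6109 in the pooled list and 10826, 7206 and 9404 in the replicates, outside the strongest peaks of each.

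Hsp68 had an optimal site nearby but not at its own promoter. Hsp68 runs from 24055080 to 24057310 on the minus strand of 3R. The optimal summit at 24058251, rank 1162, was 941 bp upstream of Hsp68 and 36 bp from the TSS of SMC1, a cohesin subunit gene transcribed away from it on the other side of a 977 bp gap. Replicates 1, 2 and 3 ranked the SMC1 site at 1225, 2554 and 685. The Hsp68 promoter itself had a pooled summit 169 bp upstream of its TSS at rank 12684, with a −log10 q of 0.52. Replicate 3 had a promoter summit at 5142, and replicates 1 and 2 had none among their 30000 entries. That weak summit lay on a run of heat shock units, with 4 pairs beginning from 13 bases before to 2 bases after it.

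Hsf, the gene of the factor that drives the response, was not occupied in the optimal list. It lies on 2R from 18130303 to 18134634 on the minus strand. Its pooled promoter summit at 18134628, 6 bp from the TSS, ranked 13999, and a summit in a coding exon at 18133928 ranked 16612. Replicate 1 had no promoter summit, replicate 2 had one at 17239 and replicate 3 one at 6971. The nearest optimal summit was 6097 bp away. The downstream neighbour Dlip3 had a bound promoter at rank 3766, while Pcl, the upstream neighbour, had none in the optimal list.

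**Figure D2:**
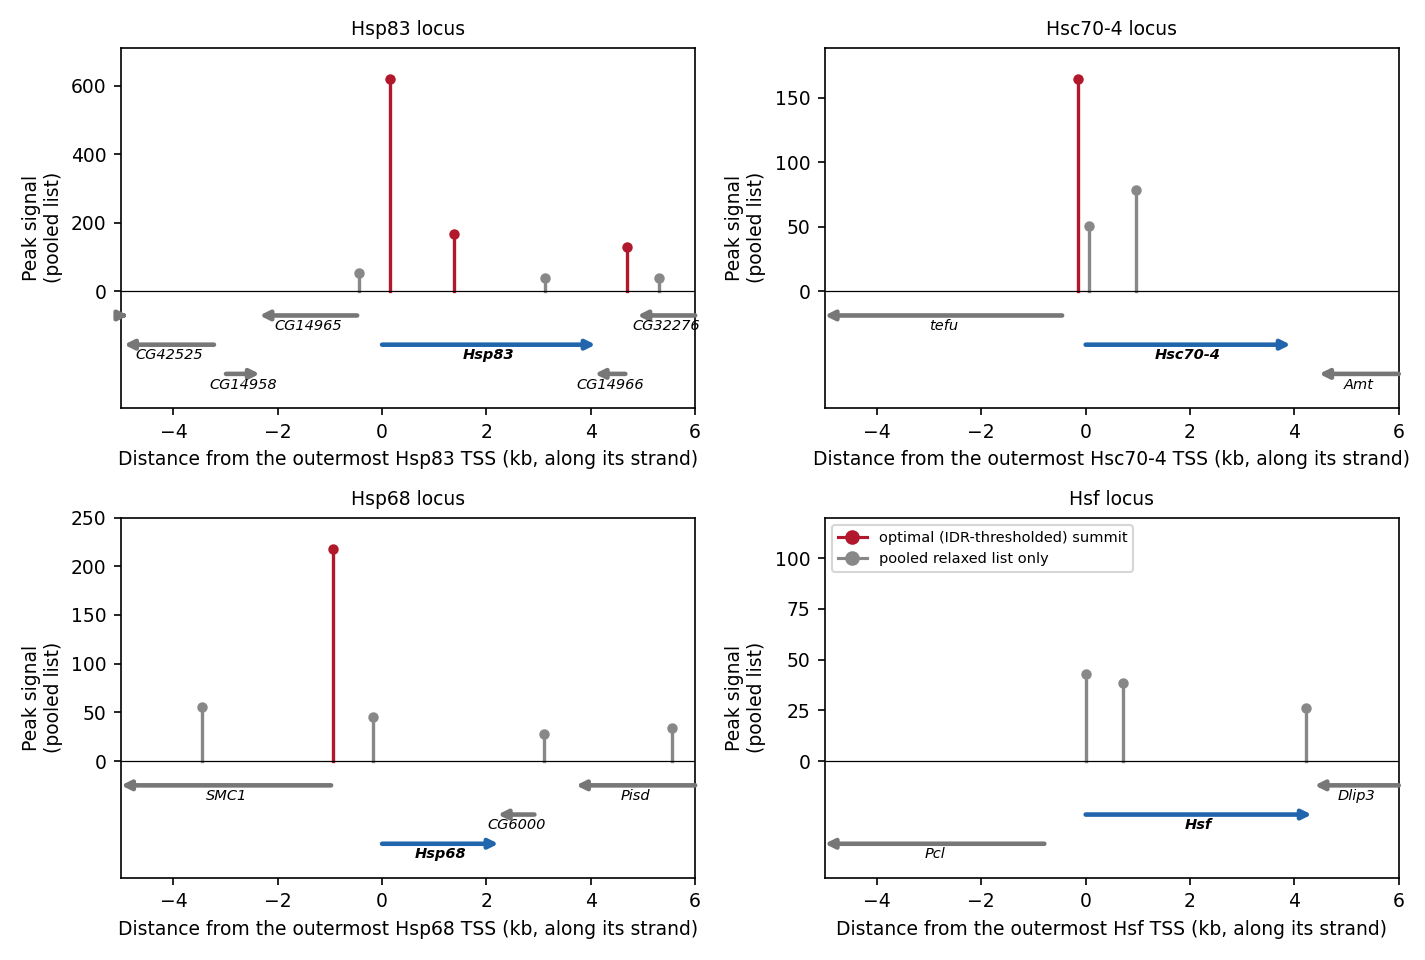
Pooled-list summits around Hsp83, Hsc70-4, Hsp68 and Hsf. The horizontal axis is the distance in kb from the outermost TSS along the strand of the gene, the vertical axis the peak caller's signal in the pooled list with a scale of its own in each panel; red marks optimal summits, grey marks weaker entries and arrows show protein-coding genes. The tallest summits of Hsp83 (618.8) and Hsc70-4 (164.4) stand at their own promoters, that of the Hsp68 panel (217.4) stands at SMC1, and Hsf has weak entries with signals up to 42.7.

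Across the group the occupied promoters could be ordered by their replicate ranks. Hsp83 (73 to 93) stood apart from Hsp27 (117 to 331), and Hsp27 from Hsp26 (949 to 2133), with no overlap between replicate values. Hsp26 and Hsc70-4 (1885 to 2193) overlapped and could not be ordered. Hsp22 (3696 to 8564) lay below Hsc70-4 in every replicate. It could not be ordered against Hsp68, Hsf and Hsp67Bc, since in replicate 3 Hsp68 (5142) and Hsf (6971) ranked above it and Hsp67Bc shared its summit. The values of Hsf, Hsp67Bc, Hsp68 and Hsp23, several of them absent, gave no order. In replicate 1, 5 members had a promoter summit among the strongest 4417 peaks, against 24.7% of protein-coding genes. The number was 5 in replicate 2, against 25.1%, and 4 in replicate 3, against 23.9% (mean 4.67 ± 0.577, SD, n = 3). Hsp22 made the difference. The 4 occupied members were found in all 3 replicates, as were 17.4% of protein-coding genes. In the relaxed pooled list 8 of 9 members had a promoter summit, all but Hsp23, against 54.6% of protein-coding genes.

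**Figure D3:**
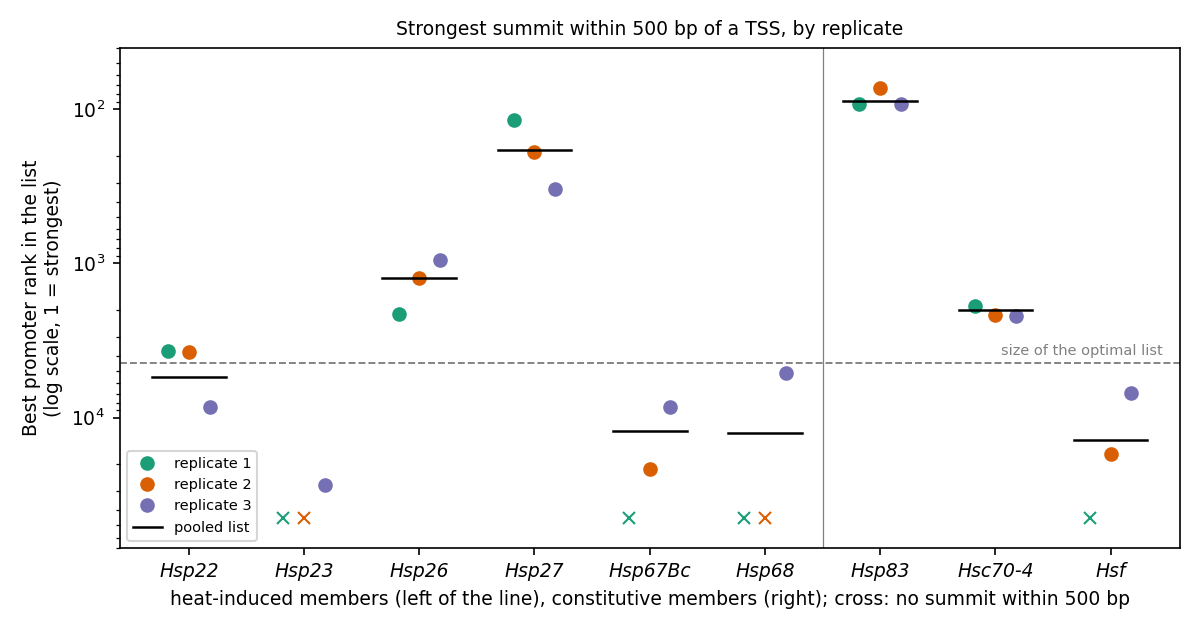
Rank of the strongest summit within 500 bp of a TSS for each member, on a reversed log axis where 1 is the strongest of 30000 entries. Points are the 3 replicates, black bars the pooled list, crosses mean that the list had no such summit, and the dashed line is the size of the optimal list, 4417. Hsp83, Hsp27, Hsp26 and Hsc70-4 lie above the line in every replicate, Hsp22 in replicates 1 and 2, and the other members in none.

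Heat-induced and constitutive genes were then compared. Of the 6 heat-induced genes 2 were bound (33.3%), and of the 3 constitutive genes 2 (66.7%), against 25.0% of protein-coding genes. With so few genes in each class no test was attached to these counts. The best promoter ranks had a median of 16849, 12686 and 6853 for the heat-induced class in replicates 1, 2 and 3, and of 1885, 2178 and 2193 for the constitutive class, where a gene without a summit was placed after the last entry. The constitutive medians were the ranks of Hsc70-4 alone. In replicate 1 the heat-induced median was the midpoint between Hsp22 (3696) and the rank assigned to genes without a summit. The difference, heat-induced minus constitutive, averaged 10044 ± 5167 ranks (SD, n = 3) and was positive in 3 of 3 replicates. An exact two-sided sign-flip permutation test over replicates gave p = 0.25, the smallest that 3 replicates allow. The test measures how far the replicates agree for these fixed genes, not the spread between genes of a class. The size of the difference depended on the promoter distance, with 17409 ranks at 250 bp and 1521 at 1000 bp. Where the peak interval had to cover the TSS, 1 heat-induced gene was bound. The direction depended on Hsp83, which is expressed without stress and also induced by it. With Hsp83 placed among the heat-induced genes, 3 of 7 heat-induced and 1 of 2 constitutive genes were bound. The mean difference then turned to -5884 ranks (exact sign-flip p = 0.5), though the difference of replicate 3 stayed positive. Occupied and unoccupied promoters therefore occurred in both classes.

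The occupied summits lay upstream of the start, as did 81.5% of all optimal promoter summits. Relative to the nearest TSS of their gene they stood at -102, -144, -142 and -141 bp for Hsp83, Hsp27, Hsp26 and Hsc70-4. Among all 2753 optimal summits within 500 bp of a protein-coding TSS the median was -57 bp and 11.2% lay 100 to 150 bp upstream, a range drawn around the members' values after they were seen. The replicate summits of Hsp83 lay between -97 and -110 bp and those of Hsp27 between -144 and -160 bp. Hsc70-4 varied more, since the summit of replicate 1 was 37 bp upstream of the TSS. Members were not chosen by summit position, but only 4 summits enter this description and no test was made.

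Heat shock elements did not separate occupied from unoccupied promoters. Promoter windows took in 500 bp upstream and 50 bp downstream of a TSS and were searched on both strands. There, 9 of 9 members held a pair of heat shock units, against 27.1% of 19253 protein-coding promoter windows of the same length. Members with several TSSs had several windows and counted when any of them held the word. The member counts and the shares of single windows are therefore of unlike units. Hsp23, Hsp68 and Hsc70-4 held 3 alternating units in a row, which 0.805% of all windows did. The Hsc70-4 run began at -205 bp from an internal TSS at 15243156, not at the occupied summit. Hsp23, with such a run beginning at -405 bp from its TSS and 2 further pairs in the stretch printed above, had no pooled promoter summit, and Hsp68 had a weak one. Of the 7 optimal windows of 201 bp around the members' summits, 3 held a heat shock pair, those at Hsp83, Hsp26 and Hsc70-4. Such a pair stood in 10.6% of all optimal windows and in 10.5% of windows moved by 500 bp. The strongly occupied Hsp27 window held neither a heat shock pair nor a GAGA element.

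Other promoter words were searched in the same way. Members again counted when any of their promoter windows held the word, while the background shares are of single windows. GAGA elements (GAGAG) were in promoter windows of 7 of 9 members, all but Hsp68 and Hsf, against 47.6% of protein-coding windows, but in 1 of 7 optimal summit windows, that of Hsp26, against 1014 of all 4417. The DNA replication-related element (DRE, TATCGATA), which marks many housekeeping promoters, was in 7.90% of all optimal windows and in 0.770% of moved windows. It was in none of the 7 windows here, but in a promoter window of Hsp83, as in 10.3% of protein-coding windows. Its core CGATA, part of the full element, stood in 2 of the 7, at SMC1 with 4 copies and at Hsp26 with 1, against 39.1% of all. In the promoter windows 8 of 9 members held the core, all but Hsp68, against 61.4% of protein-coding windows. Hsc70-4 held it only in the windows of its TSSs at 15244219 and 15244256, and Hsp22 only in that of its outer TSS. The TATA box (TATAAA) was in 2 of the 7 windows, at Hsp83 and Hsp26, against 27.2% of all. In the promoter windows all 9 members held it, against 61.2% of protein-coding windows. A match shows only that the letters are present.

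Other chaperone genes and Hsf-related regulators were examined from lists drawn up beside the members, also with earlier results of these data known. Of 53 genes matched from 54 symbols, 22 (41.5%) had an optimal promoter summit, against the 25.0% of protein-coding genes given above. A pooled one was found for 35 of the 53, against 54.6% of protein-coding genes. None of the 6 heat-induced Hsp70 copies (Hsp70Aa, Hsp70Ab, Hsp70Ba, Hsp70Bb, Hsp70Bbb and Hsp70Bc) had a promoter summit in any list. These copies are nearly identical, and whether reads were placed uniquely there was not tested. Of 4 other heat-induced genes 3 were bound: stv, the fly BAG-family co-chaperone gene (rank 1554), the Hsp40 gene DnaJ-1 (rank 1757) and the long non-coding RNA gene lncRNA:Hsromega (rank 1821). The stv summit was 484 bp from its TSS, and replicate 2 had none within 500 bp. Of 5 other small heat shock genes none was bound.

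Constitutive chaperones and co-chaperones were bound in part. The counts below stand against 25.0% of protein-coding genes. Of 5 Hsp70 cognates 3 were bound: the mitochondrial Hsc70-5 (rank 1476), Hsp110, listed as Hsc70Cb in older symbols (rank 1938), and the endoplasmic reticulum chaperone Hsc70-3 (rank 3926). The Hsc70-3 summit was 498 bp from its TSS, at the edge of the promoter distance. The best Hsc70-3 promoter ranks in replicates 1, 2 and 3 were 4223, 5804 and 10253. Gp93, the endoplasmic reticulum Hsp90, had its best pooled summit at 4605, just below the optimal list, and the summit credited to mitochondrial Trap1 (rank 3867) was nearest to Bap170. Of 5 mitochondrial chaperonin genes CG11267 alone was bound (rank 1082). For the cytosolic chaperonin CCT the count was 3 of 8, namely CCT2, CCT7 and CCT4 (ranks 2616, 3832 and 3901), while all 8 had a pooled promoter summit. Of 9 co-chaperones 6 were bound: the Hsp40 genes mrj (rank 728) and Droj2 (rank 3209), the Hsp90 partners p23 (rank 1367), Cdc37 (rank 1799) and Fkbp59 (rank 2751), and Tpr2 (rank 1843). Stip1, the Hsp70 to Hsp90 adaptor gene, ranked 4701 in the pooled list.

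Of 9 genes for Hsf partners and pausing factors 5 were bound, against 25.0% of protein-coding genes. The summit counted for Nelf-E, a subunit of the pausing factor NELF, ranked 74 but was nearest to RpL14, a ribosomal protein gene. That for Nelf-A ranked 661 and was nearest to CG3337. The GAGA factor gene Trl had its own summit 109 bp from a TSS at rank 870, and 2165, 879 and 458 in the replicates. The positive elongation factor subunit gene CycT ranked 3997, and 17438, 2646 and 3539 in the replicates. The elongation factor gene spt4 ranked 4073, and 3812, 3923 and 5151 in the replicates. By the likeness of log10 ranks over the 3 replicate lists, the genes closest to Hsp83 among 5928 compared were Nelf-E and RpL14, which share a summit (ranks 85, 65 and 83, distance 0.0779), and CG8320 (ranks 102, 84 and 98, distance 0.0780). This likeness is of 3 ranks and has no test.

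**Figure D4:**
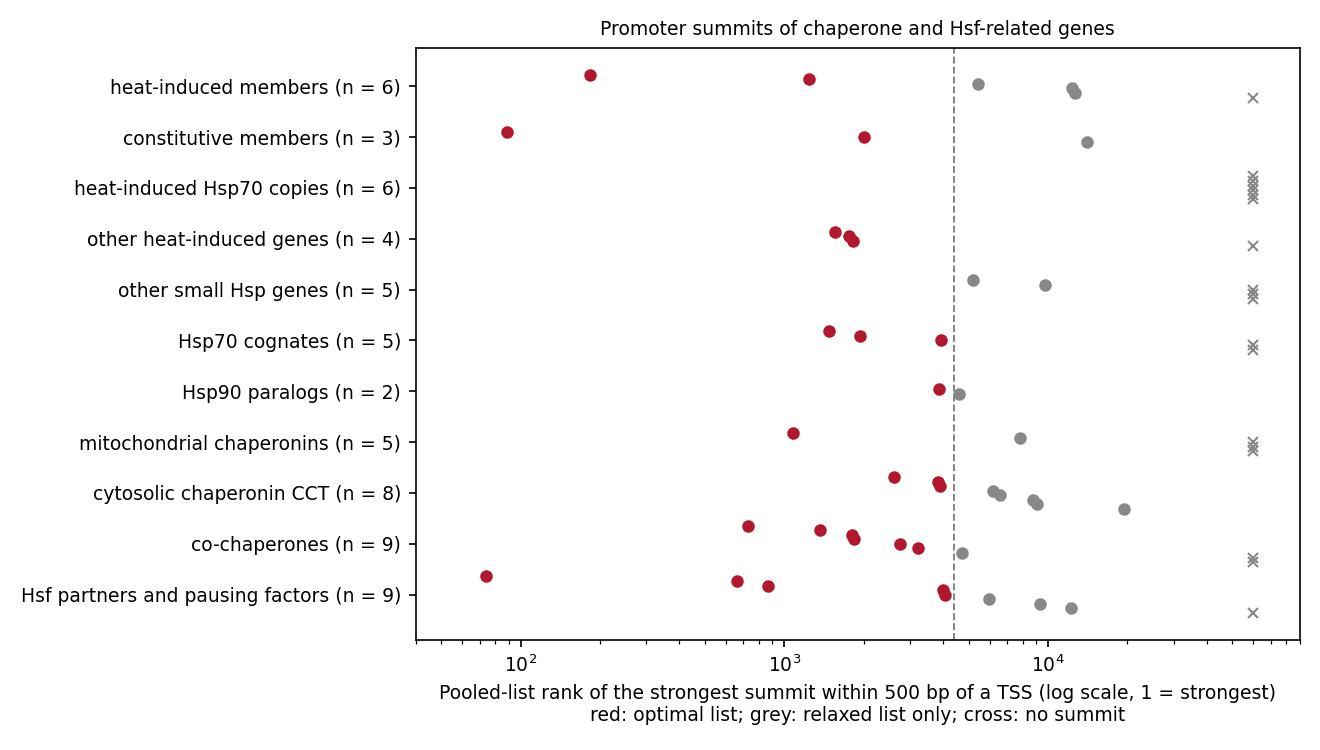
Pooled-list rank of the strongest summit within 500 bp of a TSS for the members and the wider chaperone and Hsf-related lists, on a log axis where 1 is the strongest. Each point is a gene, red when the summit is in the optimal list and grey when it is in the relaxed list alone, crosses are genes without a summit, and the dashed line is the size of the optimal list, 4417. The 6 Hsp70 copies have crosses throughout, and 6 of 9 co-chaperones are red, against 25.0% of protein-coding genes with an optimal promoter summit.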

How the data were processed

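The authors deposited a relaxed peak list, made as input to IDR, for every replicate and for the replicates pooled, and an optimal list past the IDR threshold. Which aligner, peak caller and IDR threshold were used, and how deep the libraries were, is not given in the sources used here. Each peak has a signal value, a score that the authors deposited, whose scale differs between lists, so only ranks were compared. The authors also deposited a −log10 q per peak, which entered no test. Peaks were called per replicate and on pooled replicates, and all 4417 optimal peaks are the strongest entries of the pooled list, so their ranks are not independent of the replicates.

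Intervals and summits are in dm6 and are given 1-based. TSSs came from Ensembl release 115 (BDGP6.54) without transposable elements, 23581 positions in all. Genes with an optimal summit 500 bp or less from at least 1 of their TSSs are called bound. Each site was followed to the closest summit in every replicate list, matched within 150 bp where a match is stated. Replicate spread is given as SD over 3 replicates, which the labels call biological. Scripts used Python 3.11.15, numpy 2.4.6 and pandas 2.3.3, and the assignment of summits to genes was tested on planted summits.

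The members and the wider lists were chosen with earlier results of these data known. The named genes are the members, the nearest genes of their sites, their protein-coding neighbours, bound genes of the wider lists and the 3 genes most like the strongest member; genes outside this rule were named after their values were seen. The searches for 3 heat shock units in a row and for shared words were added after the data were seen. The peak lists on dm3 were not used here.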

Additional observations from a re-analysis of the deposited data

How the results depend on the processing

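The 4 bound promoters, of Hsp83, Hsp27, Hsp26 and Hsc70-4, were the same genes with promoters of 250 bp, in the higher-signal 50% of optimal peaks, in peaks found in all 3 replicates and when a peak counted for the nearest TSS alone. Leaving out each replicate in turn also left 4, which was fixed by construction, since the optimal list was not called again and these sites were matched in all 3 replicates. With 1000 bp Hsp68 joined through the SMC1 site. Where the peak interval had to cover the TSS, Hsp27 dropped out, leaving 1 heat-induced gene. With Hsp83 counted as heat-induced, 1 constitutive gene was bound and the mean class difference in median rank reversed to -5884, though not in replicate 3. That difference was 17409 with 250 bp, 1521 with 1000 bp and 7584 to 12736 without single replicates. In the strongest 10000 entries of the pooled list 5 members had a promoter summit in place of 8. In the strongest 2000 of each replicate the mean was 3.0 in place of 4.67. Fewer entries were read at these sizes. No share of protein-coding genes is given at the changed distances and list sizes, so these counts cannot be read against a background. No paired analysis was possible because all samples form a single group. Unknown read depth limits every weak or absent site: no summit in a list of 30000 entries does not show that binding is absent.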

Other observations

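The longest word shared by any pair among the 7 optimal windows at the members had 10 bases, and 7 such words were found over 21 pairs. The Hsp83 promoter site and the CG14966 promoter site shared CCAGGGATGC, read on either strand. It stood in 10 of 4417 optimal windows and in 0 of the windows moved by 500 bp. The other 6 words stood in 16 to 34 optimal windows and in 3 to 18 moved windows. The word was picked from the 7 after all pairs had been searched and these counts were seen, and no test was attached. For all 7 words the optimal count includes the pair of windows in which the word was found. The moved windows had no part in the search, so optimal and moved counts are not an even comparison.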
